A study of Saccharomyces cerevisiae with 40 samples.

Results

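Alanine as the nitrogen source was compared with urea on 2 arrays out of the 40 in a series on 20 nitrogen sources, both chosen by their labels. The cells were *Saccharomyces cerevisiae* of the wild-type strain Σ1278b, growing in minimum medium with 3% glucose and with either alanine or urea at 10 mM. They had grown for at least 10 generations and were taken in exponential growth at low density. Each array held polyA RNA of alanine-grown and of urea-grown cells in different dyes, alanine in Cy5 on array 1 and urea in Cy5 on array 2. Serine, aspartate and glutamate, also at 10 mM and with 2 arrays each against urea, were used for direct comparisons. Of 5395 genes with a value on any array of the series, 4363 had a value on both alanine arrays and 4013 of these were tested. Ploidy, mating type and whether the arrays came from separate cultures are not given in the labels. The p-values therefore measure the spread between arrays, which may be technical. A lower ratio in such bulk RNA cannot be told apart between less RNA per cell and fewer cells that carry it.

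Yeast takes up alanine through several amino acid permeases, among them the general permease Gap1 and the broad-range permease Agp1. Alanine transaminase, encoded by ALT1, moves the amino group to 2-oxoglutarate, which leaves pyruvate and glutamate. Glutamate then supplies amino groups directly, or ammonium through the NAD-dependent glutamate dehydrogenase Gdh2. A pair of control systems acts on such genes. In nitrogen catabolite repression, good nitrogen sources keep the GATA activators Gln3 and Gat1 from switching on genes for poor sources. The Ssy1-Ptr3-Ssy5 sensor (SPS) of external amino acids switches on a set of permease genes. Urea is broken down inside the cell to ammonium, and the series' design text describes both systems as not operating on it.

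Values below are log2 ratios of alanine over urea, first on array 1 and array 2, then as a fitted value ± SE (n = 2 arrays). The spread behind each SE was shared over all 40 arrays of the series. A gene was called when its adjusted p in limma's moderated test, with Benjamini-Hochberg adjustment, was under 0.05. As deposited, the 40 arrays had nearly the same spread, with interquartile ranges of 0.404 to 0.411, so the size of a change is relative to that spread. Array 1 gave values for 5205 genes and array 2 for 4449. Across genes the arrays correlated at 0.612 (Spearman 0.482), genes not being independent replicates, and 65.2% of the genes had the same sign on both. The median gap between the arrays was 0.21, and 86 genes lay over 1 apart.

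Against urea, 869 of 4013 tested genes (21.7%) were called, 384 higher on alanine (9.57%) and 485 lower (12.1%). The counts of genes called against urea in each list below are to be read against these shares. The called genes had medians of 0.47 when higher and -0.47 when lower. In 852 of them both arrays pointed in the called direction. Only 89 reached a fitted change beyond 1, of which 35 were higher and 54 lower. The lowest fitted values among called genes were those of DAL5, VBA1, DAL7, MLS1 and LEE1, and the highest those of YOR387C, VEL1 and AGP1. Leaving out array 1 left 382 calls and leaving out array 2 left 357. Of the 869 genes, 167 were called in both of those fits.

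**Figure D1:**
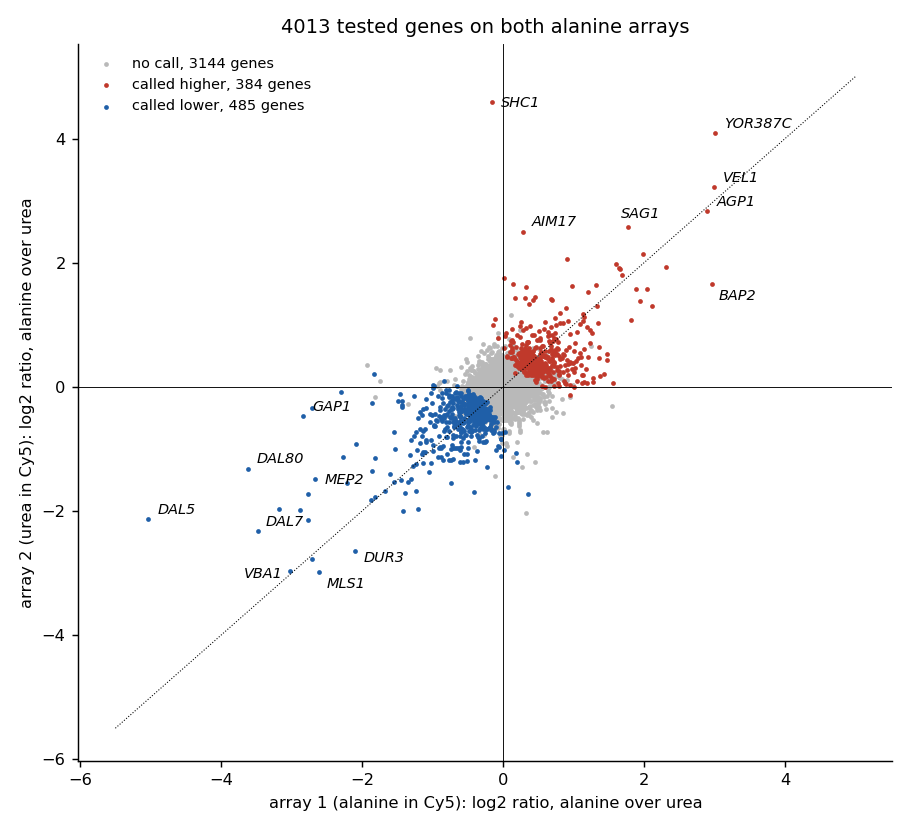
Log2 ratio of alanine over urea on array 1 (x axis) and array 2 (y axis) for each tested gene, red when called higher, blue when called lower and grey otherwise; the dotted line marks equal values. AGP1 and VBA1 lie near the line, while DAL5 (-5.04 and -2.13) and SHC1 (-0.16 and 4.60) lie far from it.

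Of the 7 permease genes listed as carrying alanine, 5 were tested. Of these, 2 were called higher and 2 lower, against 9.57% and 12.1% of all tested genes. AGP1, which encodes the broad-range permease, stood at 2.90 and 2.83, a fitted rise of 2.86 ± 0.46 or 7.28-fold (adjusted p = 8.1e-05). GNP1, for a permease of glutamine and other amino acids, stood at 1.66 and 1.90 (1.78 ± 0.21, adjusted p = 3.2e-06). The arrays lay close together for both genes. BAP3, for a permease of branched-chain and other amino acids, stood at 3.33 and 3.45, but had values on only 26 arrays and was not tested. AGP3, for another broad-range permease, was likewise not tested, at -0.21 and -0.23. Against these, the general permease gene GAP1 stood at -2.84 and -0.47, a fitted fall of -1.66 ± 0.38 (adjusted p = 0.0024). Its arrays lay far apart, and without array 1 the value was -0.61 with an adjusted p of 0.46. PUT4, for the proline permease, which also carries alanine, was low on both arrays at -2.77 and -1.72 (-2.25 ± 0.27, adjusted p = 2.2e-06). DIP5, for the permease of acidic amino acids, stood at -1.82 and -0.16 and was not called (-0.99 ± 0.40, adjusted p = 0.084).

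The SPS sensor's target list had 7 tested genes, with 5 called higher and none lower, against 9.57% and 12.1% of all tested genes. Its median was 1.78, against -0.01 over all tested genes. Beside AGP1 and GNP1, the called genes were 3 permease genes. BAP2, for a branched-chain amino acid permease, stood at 2.96 and 1.66 (2.31 ± 0.48). TAT2, for the tryptophan permease, stood at 2.31 and 1.94 (2.12 ± 0.51). TAT1, for a permease of tyrosine and valine, stood at 2.11 and 1.30 (1.71 ± 0.25). All 3 were high on both arrays, with adjusted p-values of 0.0014, 0.0057 and 2.8e-05. TAT2 lost its call without either array (adjusted p = 0.12 without array 1 and 0.070 without array 2), as did BAP2 without array 1 (adjusted p = 0.11). The dipeptide transporter gene PTR2, at 0.44 and 0.07, was not called. Neither was DIP5, the list's only member with a fitted value below 0, which was called lower without array 2 (adjusted p = 0.034). Against the mean of the other sources, none of 5 tested members was called and the median difference was -0.09. Of all genes tested in that contrast, 1.63% were called.

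Among 17 other tested permease genes, 4 were called higher and 8 lower, against 9.57% and 12.1% of all tested genes. Of these 4, BAP2, TAT2 and TAT1 were already counted among the SPS targets. The fourth gene called higher was MUP1, for the high-affinity methionine permease, at 1.32 and 1.63 (1.48 ± 0.22). The lowest was VBA1, which encodes a vacuolar carrier of basic amino acids and stood at -3.02 and -2.96 (-2.99 ± 0.26, 7.94-fold lower, adjusted p = 2.6e-08). Its arrays nearly coincided, and among called genes only DAL5 had a lower fitted value.

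The gene for the first enzyme of alanine use did not pass the test against urea. ALT1 stood at 0.11 and 1.16, a fitted value of 0.63 ± 0.24 (adjusted p = 0.061), high on array 2 only. Its paralog ALT2, whose product has no alanine transaminase activity, stood at 0.48 and -0.22 (0.13 ± 0.11, not called). Of 8 tested aminotransferase genes, 2 were called higher and 2 lower, against 9.57% and 12.1% of all tested genes. AAT1, for the mitochondrial aspartate transaminase, rose at 0.79 and 0.18 (0.49 ± 0.14). BAT1, for the mitochondrial branched-chain transaminase, rose at 1.12 and 0.19 (0.66 ± 0.17). Array 1 was the higher array for both, and without it AAT1 stood at 0.12 (adjusted p = 0.72) and BAT1 at 0.53 (adjusted p = 0.18). ARO8, for an aromatic transaminase, fell at -1.18 and -0.69 (-0.93 ± 0.15). BNA3, for the kynurenine transaminase, fell at -0.74 and -0.51 (-0.62 ± 0.10), so both falls showed on both arrays.

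The genes that move nitrogen between glutamate and ammonium changed in both directions. All 7 tested genes of that list were called, 2 higher and 5 lower, with a median of -0.93. Of all tested genes, 9.57% were called higher and 12.1% lower. GDH2, for the dehydrogenase that releases ammonium from glutamate, stood at 0.17 and 1.42 (0.80 ± 0.22, adjusted p = 0.011). It was high on array 2 and lost its call without that array (adjusted p = 0.71). The genes for making glutamate and glutamine fell. GDH1, for the NADP-dependent glutamate dehydrogenase, stood at -1.23 and -1.24 (-1.24 ± 0.15, adjusted p = 1.5e-06). GLT1, for glutamate synthase, stood at -1.67 and -1.68 (-1.68 ± 0.17, adjusted p = 9.1e-08). GLN1, for glutamine synthetase, stood at -1.47 and -0.11 (-0.79 ± 0.20, adjusted p = 0.0060). GDH1 and GLT1 had nearly the same value on both arrays, while GLN1 was low on array 1 only and lost its call without it (adjusted p = 0.80). Of the ammonium permease genes, MEP2 stood at -2.67 and -1.48 (-2.07 ± 0.25, 4.21-fold lower). MEP1 stood at -0.90 and -0.97 (-0.93 ± 0.14). MEP3 stood at 0.21 and 0.53 (0.37 ± 0.12) and lost its call without array 2 (adjusted p = 0.65).

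**Figure D2:**
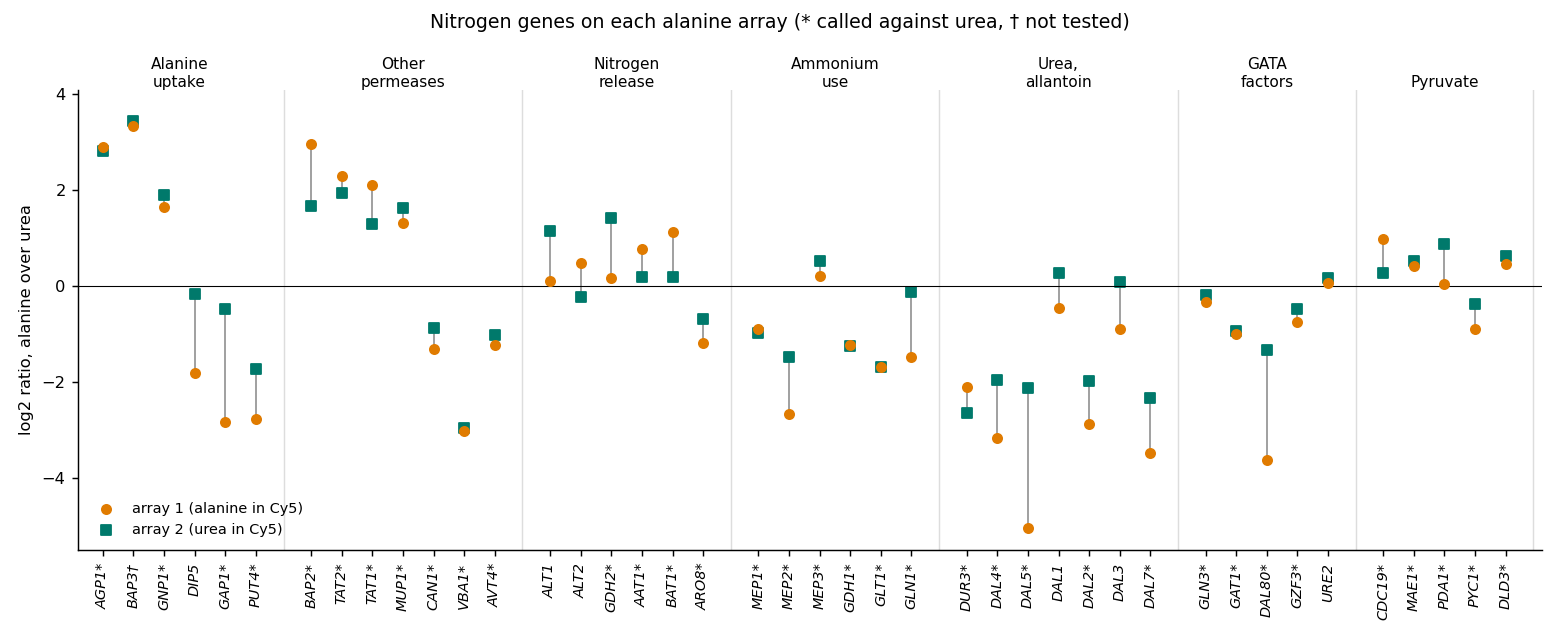
Log2 ratio of alanine over urea (y axis) on array 1 (circles) and array 2 (squares) for genes grouped by role; an asterisk marks a gene called against urea and a dagger one not tested. GDH1, GLT1, VBA1 and AGP1 have arrays close together, while DAL5, GAP1 and DAL80 were lower on array 1.

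Genes for using urea and allantoin, a purine breakdown product that yields urea, had a median of -1.53 over 11 tested genes. Of these, 6 were called lower and none higher, against 12.1% and 9.57% of all tested genes. DUR3, for the urea transporter, stood at -2.11 and -2.65 (-2.38 ± 0.31, 5.19-fold lower). DAL4, for the allantoin permease, stood at -3.17 and -1.96 (-2.57 ± 0.32). DAL5, for the allantoate and dipeptide permease, stood at -5.04 and -2.13. Its fitted value of -3.58 ± 0.37 was the lowest of all tested genes (adjusted p = 1.4e-07). All 3 transporter genes were low on both arrays, and without array 1 DAL5 still stood at -2.53 (adjusted p = 5.6e-04). The genes of the breakdown enzymes did not move alike. DAL2, for allantoicase, stood at -2.88 and -1.98 (-2.43 ± 0.24). DAL7, for a malate synthase of allantoin use, stood at -3.47 and -2.33 (-2.90 ± 0.27). DAL1, for the allantoinase that opens the allantoin ring, stood at -0.46 and 0.28 and was not called, nor was the ureidoglycolate hydrolase gene DAL3 at -0.90 and 0.08. The sixth called gene was DCG1, of unknown function, at -2.71 and -0.34, low on array 1 only and without a call when it was left out (adjusted p = 0.36). The gene of the urea-degrading enzyme, DUR1,2, was not analysed here.

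Most of the genes for the GATA factors themselves were lower on alanine, with 4 of 5 tested genes called. Of all tested genes, 12.1% were called lower. DAL80, for a GATA repressor, stood at -3.62 and -1.32 (-2.47 ± 0.27, adjusted p = 6.4e-07). GAT1, for an activator, stood at -1.0 and -0.94 (-0.97 ± 0.15). GZF3, for the other repressor, stood at -0.75 and -0.48 (-0.62 ± 0.10). All 3 were low on both arrays, with DAL80 lower on array 1. GLN3, for the other activator, stood at -0.33 and -0.18 (-0.26 ± 0.09, adjusted p = 0.041), and lost its call without either array (adjusted p = 0.27 and 0.23). URE2, for the protein that holds Gln3 back, stood at 0.07 and 0.17 and was not called.

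Over the whole list of genes under nitrogen catabolite repression, 29 were tested, 21 were called lower and 2 higher, and the median was -1.05. Of all tested genes, 12.1% were called lower and 9.57% higher. The 2 list members called higher were GDH2 and MEP3. On array 1 the list's median was -1.24 and on array 2 it was -0.94, and 23 genes were below 0 on both arrays. Without array 1, 16 genes were called lower, and without array 2, 23. Genes for proline use were among the list's lowest. PUT1, for proline oxidase, stood at -2.76 and -2.14 (-2.45 ± 0.46, adjusted p = 4.7e-04), and lost its call without array 1 (adjusted p = 0.066).

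Alanine leaves pyruvate as its carbon skeleton, and most genes around pyruvate were not called. Of 21 tested genes, 5 were called higher and 1 lower, with a median of 0.07, where 9.57% of all tested genes were called higher and 12.1% lower. CDC19, for pyruvate kinase, stood at 0.98 and 0.28 (0.63 ± 0.14). MAE1, for the mitochondrial malic enzyme that makes pyruvate, stood at 0.42 and 0.53 (0.47 ± 0.16). PDA1, for a subunit of pyruvate dehydrogenase, stood at 0.05 and 0.87 (0.46 ± 0.16). Each of these was above 0 on both arrays, CDC19 mainly on array 1 and PDA1 mainly on array 2. PDX1, for another part of that enzyme complex, had a fitted value of 0.27 ± 0.09, and DLD3, for a cytosolic dehydrogenase that acts on lactate and hydroxyglutarate, of 0.55 ± 0.12. PYC1, for pyruvate carboxylase, stood at -0.90 and -0.38 (-0.64 ± 0.18, adjusted p = 0.012). Without array 1 only DLD3 and PDA1 of the 21 were called higher, and without array 2 only CDC19, so that no gene of the list was called in both fits. CHA1, for the serine and threonine deaminase that also yields pyruvate, stood at -0.96 and 0.31 and was not called. Of the fermentation and acetate genes, 2 of 12 were called higher and 3 lower. ADH4, for an alcohol dehydrogenase, stood at 1.69 and 1.81 (1.75 ± 0.36), and lost its call without array 1 (adjusted p = 0.095).

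Beyond nitrogen use, targets of the unfolded protein response, which codes for folding helpers and oxidases of the secretory pathway, were higher on alanine. Of 12 tested genes, 11 were called higher and none lower, and the median was 0.76. Of all tested genes, 9.57% were called higher and 12.1% lower. ERO1, for the oxidase that drives disulfide formation, stood at 0.98 and 1.63 (1.30 ± 0.21). EUG1, for a protein disulfide isomerase, stood at 1.14 and 1.18 (1.16 ± 0.10, adjusted p = 4.4e-08). HAC1, for the transcription factor of this response, stood at 1.47 and 0.53 (1.00 ± 0.17). The list's median was 0.82 on array 1 and 0.71 on array 2, and the same 11 genes lay above 0 on both. Without array 1, 6 genes were called higher, and without array 2, 10. Mitochondrial ribosomal protein genes had smaller shifts, with 24 of 55 tested genes called higher, 2 lower and a median of 0.33. MRPS35 had the highest fitted value of these at 0.69 ± 0.11 and MRPL33 the lowest at -1.06 ± 0.33. That count fell to 5 without array 1 and to 11 without array 2. Cytosolic ribosomal protein genes had 6 of 134 called higher and 4 lower (median 0.10), and ribosome assembly genes 2 of 53 higher and 1 lower (median -0.02). In both of these lists the shares called lay below those of all tested genes.

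Ergosterol synthesis, which makes the yeast sterol through many oxygen-dependent steps, was lower on alanine for 11 of 19 tested genes and higher for 1, with a median of -0.38. ERG5, for the sterol desaturase, stood at -1.02 and -1.23 (-1.12 ± 0.15, adjusted p = 7.5e-06). ERG3, for another sterol desaturase, stood at -1.14 and -0.35 (-0.74 ± 0.16). ERG25, for a methyl oxidase, stood at -0.80 and -0.65 (-0.72 ± 0.16). In all, 16 of the 19 genes lay below 0 on both arrays, with ERG5 the lowest. Without array 1, 8 genes were called lower, and without array 2, 4. Vacuolar protease genes had 5 of 9 called lower, with a median of -0.58. CPS1, for a carboxypeptidase, stood at -1.87 and -1.83 (-1.85 ± 0.21) and APE1, for an aminopeptidase, at -1.18 and -0.91 (-1.05 ± 0.13). Other lists were nearer to the 12.1% of all tested genes called lower. Of 18 autophagy genes 4 were called lower and none higher, with a median of -0.09, the lowest being ATG32, for the receptor of mitochondrial autophagy, at -1.45 and -1.49 (-1.47 ± 0.13). Among 21 genes of sulfate and methionine metabolism 4 were called lower and none higher, with a median of -0.12. The sulfate permease gene SUL1 was the lowest of them at -1.31 and -1.49 (-1.40 ± 0.13).

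Amino acid synthesis did not move as a whole. The shares over all tested genes were 9.57% called higher and 12.1% called lower. Asparagine synthetase gene ASN2 stood at 1.81 and 1.07 (1.44 ± 0.18), and 3 of 5 genes for asparagine and proline synthesis were called higher and 1 lower. Of 7 lysine genes 3 were called higher and 1 lower. LYS20, for homocitrate synthase, led them at 0.80 and 1.19 (1.00 ± 0.19). None of 6 histidine genes and none of 12 aromatic amino acid genes was called. Neither did respiration stand out, with 0 of 33 respiratory chain and ATP synthase genes called higher and 1 lower. Of 15 genes of the citric acid and glyoxylate cycles, MDH1 (0.54 and 0.42), for a malate dehydrogenase, was called higher and MLS1, for malate synthase, lower. MLS1 stood at -2.61 and -2.98 (-2.80 ± 0.34, adjusted p = 1.5e-06), low on both arrays. DAL7, also for a malate synthase, had a similar fitted value of -2.90. Whether these genes share signal on an array was not tested.

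**Figure D3:**
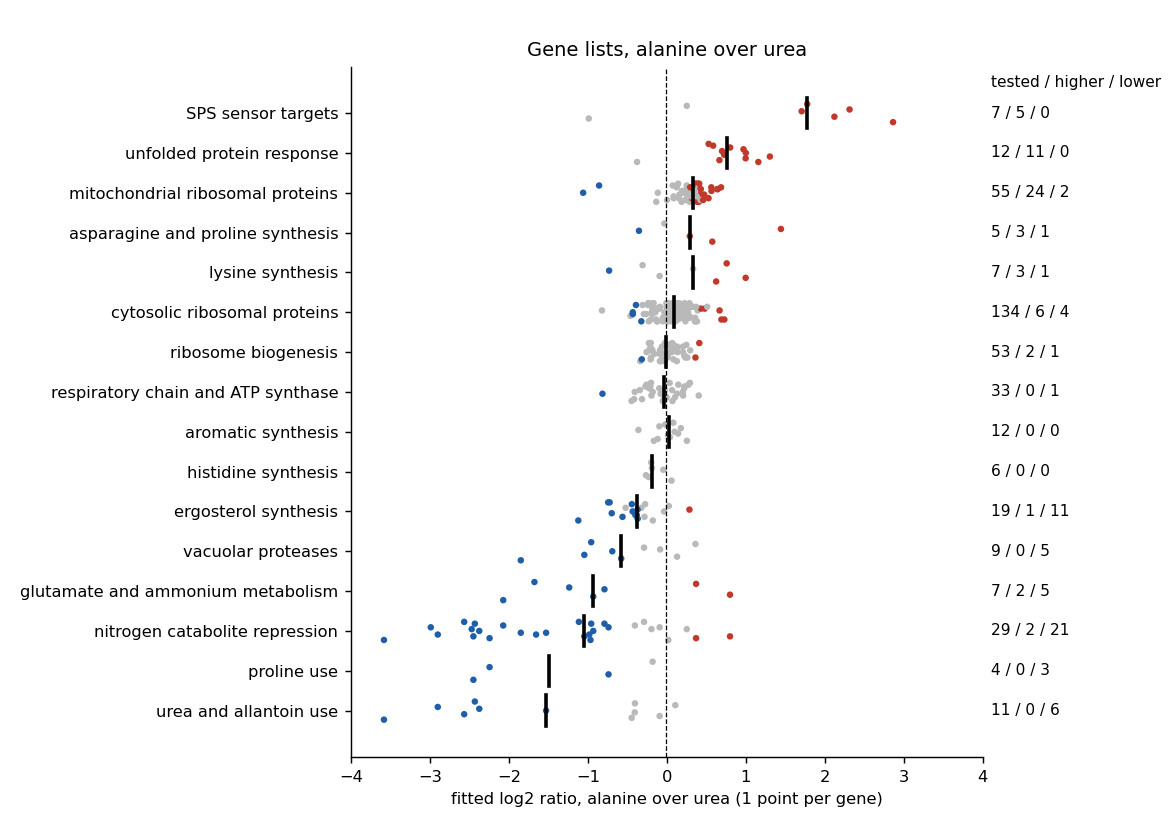
Fitted log2 ratio of alanine over urea (x axis) for the tested genes of 16 lists, 1 point per gene, red when called higher, blue when called lower and grey otherwise; the black bar is the list's median and the dashed line the median of all tested genes. Medians run from 1.78 for SPS sensor targets to -1.53 for urea and allantoin use.

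The remaining named genes at the extremes had varied roles. YOR387C, of unknown function, had the highest fitted value of all, at 3.01 and 4.09 (3.55 ± 0.71). VEL1, which resembles it closely in sequence, stood at 2.99 and 3.22 (3.10 ± 0.49), and such copies may share signal on an array. The cell wall genes SED1 and TIP1 were high on both arrays, SED1 at 2.04 and 1.58 (1.81 ± 0.29) and TIP1 at 1.65 and 1.92 (1.78 ± 0.25). So were 2 mating genes, SAG1, for the alpha-agglutinin, at 1.78 and 2.58 (2.18 ± 0.35), and FUS1, for a protein of cell fusion, at 1.88 and 1.57 (1.73 ± 0.23). YHR213W, a flocculin-like gene, stood at 1.98 and 2.14 (2.06 ± 0.46), and was not called without array 2 (adjusted p = 0.11). YDL124W, for a keto reductase, stood at 1.60 and 1.97, and URH1, for uridine nucleosidase, at 1.94 and 1.38. At the low end were LEE1, a zinc finger gene, at -2.71 and -2.77, and YHI9, of unknown function, at -2.22 and -1.55. SHC1, a chitin synthesis gene, was called at 2.22 ± 0.54 although its arrays stood at -0.16 and 4.60. It fell outside the rule for named genes and is given because its arrays disagree.

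Since urea was on every array, a change against urea can be shared by all other sources. Alanine was therefore set against the mean of the other sources measured on both arrays (15 to 19 of 19), a contrast from which urea cancels. Of 3194 genes tested, 52 were called (1.63%), 6 higher on alanine (0.188%) and 46 lower (1.44%). Of the 52 genes, 48 had also been called against urea in the same direction. These calls were far less secure than those against urea. Without array 1, 102 genes were called, without array 2, 10, and SDL1 alone of the 52 was called in both fits.

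SDL1 and its neighbour YIL168W are a pair of reading frames of one serine dehydratase gene in the reference strain. SDL1 stood at -1.82 and -1.78, against a mean of -0.62 over the other sources (difference -1.18 ± 0.15, adjusted p = 8.5e-05). YIL168W stood at -1.55 and -1.53, against -0.45 (-1.09 ± 0.20, adjusted p = 0.0058). For both genes 3 sources had lower values, the lowest being asparagine, at -2.41 for SDL1 and -2.01 for YIL168W.

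Genes of nitrogen catabolite repression had 6 of 28 called lower and none higher in this contrast, with a median of -0.45 against -0.02 over all genes tested. Of all genes tested in this contrast, 1.44% were called lower and 0.188% higher. VBA1 differed from the other sources by -1.18 ± 0.26, PUT4 by -1.16 ± 0.28, MEP2 by -1.04 ± 0.26 and CPS1 by -0.93 ± 0.21. Alanine was not the lowest source for any of these, with 3 sources below it for VBA1 and 4 for the others, and asparagine was the lowest, at -3.50 for VBA1 and -4.07 for MEP2. The highest sources lay near urea, with tryptophan at 0.12 for VBA1 and 0.02 for MEP2. CAR1, for arginase, stood at -0.29 and 0.33 on alanine, near its level on urea, while the other sources averaged 0.95 with citrulline at 5.47 (difference -0.94 ± 0.23, adjusted p = 0.035). None of VBA1, CPS1 and CAR1 was called without either array, and PUT4 and MEP2 were not called without array 1. AVT4, for a vacuolar carrier, was the last of the 6 (-0.58), and outside the list GLT1 was called at -0.67 ± 0.17.

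Outside nitrogen use, alanine was the lowest of all sources for several genes. NDE1, for the external NADH dehydrogenase of mitochondria, stood at 0.46 and -0.32 on alanine, while the other sources ran from 0.14 on valine to 2.13 on threonine (difference -1.22 ± 0.25, adjusted p = 0.010). ERG5 was lowest too, with the others between -0.74 and 0.51 (-0.98 ± 0.16, adjusted p = 0.0010). ENA1, for a sodium pump, stood at -0.22 and -1.28 against a mean of 0.36 (-1.11 ± 0.24). ENA2, its near-identical neighbour, stood at -1.42 and -1.99 against -0.40 (-1.31 ± 0.18) and had 2 sources below it. CUP1-1, for metallothionein, stood at -0.73 and -1.54 against a mean of -0.17 (-0.96 ± 0.24, adjusted p = 0.033). Its fitted value of -1.14 was close to those of asparagine at -1.12 and serine at -1.05. Its identical copy CUP1-2 was not called (-0.92 ± 0.27, adjusted p = 0.092), and the signals of such copies on an array cannot be told apart. NDE1, ERG5, ENA1, ENA2 and CUP1-1 were each called without array 1 and lost their call without array 2, with adjusted p-values from 0.091 for ENA2 to 1 for NDE1 and CUP1-1.

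In this contrast 1.44% of all genes tested were called lower and 0.188% higher. The ergosterol list had 1 of 19 genes called, which was ERG5, and a median difference of -0.30. By rank among the sources, alanine was the lowest for 7 of the 19 genes and among the 3 lowest for 15. Over all genes tested against urea those shares were 5.18% and 17.8%. Of the unfolded protein response, 1 of 11 genes was called higher than on the other sources and the median difference was 0.11. That gene was EUG1 (0.62 ± 0.11, adjusted p = 0.0027), where alanine stood just below glutamine at 1.18. Mitochondrial ribosomal protein genes had 0 of 48 called and a median difference of 0.06. No cytosolic ribosomal protein gene was called either, but 122 of 132 lay above 0 and 10 below, with a median of 0.24. Ribosome assembly genes had 34 of 45 above 0 and 11 below, none called, with a median of 0.13. Over all genes tested, 1466 of 3194 lay above 0 and the median was -0.02.

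HEM13, for the coproporphyrinogen oxidase of heme synthesis, was higher on alanine than on any other source. It stood at 0.69 and 1.41 on alanine, and the others ran from -0.40 on tyrosine to 0.66 on valine (difference 0.94 ± 0.15, adjusted p = 9.2e-04). Both arrays lay above the fitted value of the highest other source, which is not a comparison with single arrays of other sources. Without array 2 the difference was 0.62 and was not called. AIM17, of unknown function, stood at 0.28 and 2.50 (1.24 ± 0.25) and YJL213W, also of unknown function, at 0.02 and 1.75 (0.97 ± 0.24). Both rested on array 2, and without it their differences were 0.23 and 0.02. NGL1, for a putative endonuclease, stood at 1.13 and 1.06 (0.58 ± 0.13), and SUR2, for a sphingolipid hydroxylase, at 0.18 and 0.20 (0.40 ± 0.10). Neither was called without either array.

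**Figure D4:**
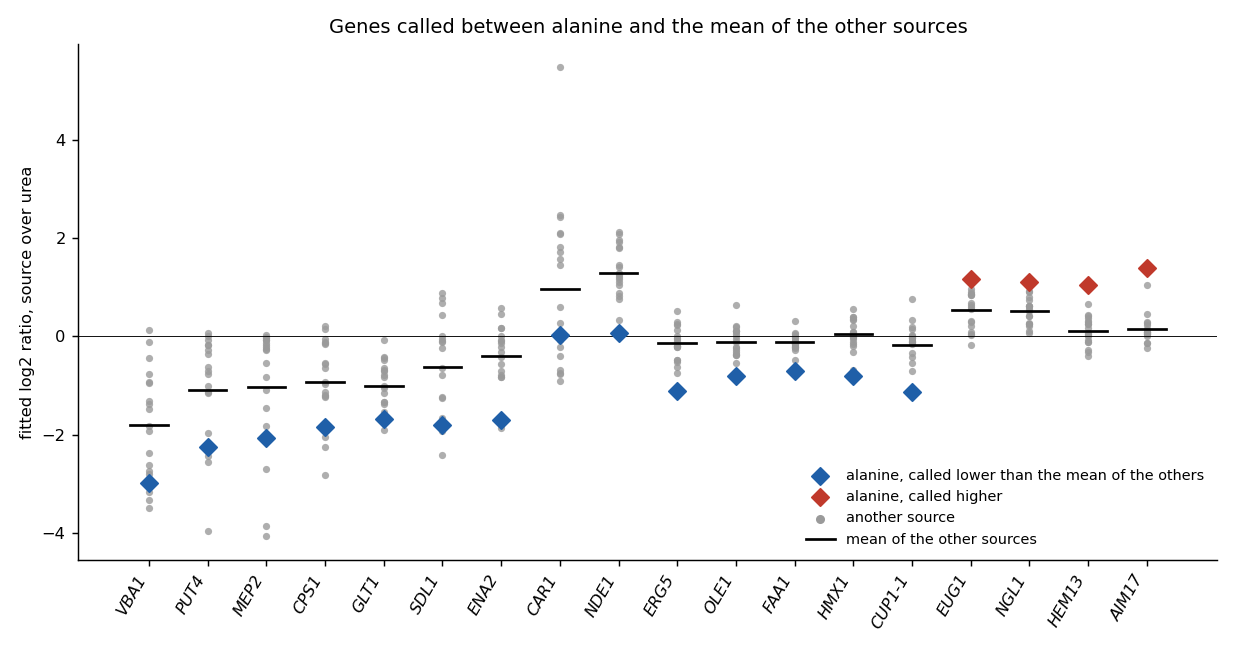
Fitted log2 ratio over urea (y axis) on alanine (diamonds) and on each other source (grey points) for 18 genes called against the mean of the other sources (black bar). Alanine is the lowest point for NDE1, ERG5, OLE1, FAA1, HMX1 and CUP1-1 and the highest for NGL1, HEM13 and AIM17. For VBA1, PUT4, MEP2 and CPS1 other sources lie lower. Sources without a fitted value are not shown, for AIM17 asparagine, glutamine and serine. For NGL1 phenylalanine is close, at 1.08 against 1.10 on alanine.

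Alanine was last set against serine, aspartate and glutamate, 3 pairs with p-values adjusted over genes and pairs together. Serine is alanine with a hydroxyl on the side chain, aspartate is alanine with a carboxyl there, and glutamate has a side chain longer than that of aspartate by 1 carbon and is the product of alanine transamination. All were at 10 mM. Few genes were called. Of 3036 genes 2 were called against serine (0.0659%), of 3741 genes 4 against aspartate (0.107%) and of 3416 genes 6 against glutamate (0.176%), 5 of them higher on alanine (0.146%) and 1 lower (0.0293%). At an unadjusted p under 0.05 there were 229, 321 and 403 genes.

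Against serine, CHA1 was lower on alanine and DAL1 higher. CHA1, for the deaminase that serine induces, stood at -0.96 and 0.31 on alanine and at 2.18 and 2.78 on serine. The difference was -2.80 ± 0.45 (95% interval -3.73 to -1.87, adjusted p = 0.0065), and it was not called without the second serine array (-2.37, adjusted p = 0.086). DAL1, the allantoinase gene, stood at -0.46 and 0.28 on alanine and at -1.36 and -1.67 on serine (1.42 ± 0.24, 95% interval 0.93 to 1.92, adjusted p = 0.0067). It was also higher than on glutamate, where it stood at -1.09 and -1.41 (1.16 ± 0.24, adjusted p = 0.048). Without the second alanine array those differences were 0.83 and 0.57 and neither was called, nor was either without 1 of the arrays of serine or glutamate.

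The alanine transaminase gene separated alanine from the acidic amino acids. ALT1 stood at 0.11 and 1.16 on alanine, at -1.07 and -1.23 on aspartate and at -1.43 and -1.43 on glutamate. It was thus higher on both alanine arrays than on any array of the other 2 sources. How many of all tested genes were separated in this way was not counted. The differences were 1.78 ± 0.34 from aspartate (95% interval 1.08 to 2.48, adjusted p = 0.034) and 2.06 ± 0.34 from glutamate (95% interval 1.36 to 2.76, adjusted p = 0.0065). On serine ALT1 stood at -0.21 and -0.96, and the difference of 1.21 was not called (95% interval 0.52 to 1.91, adjusted p = 0.17). Without the second alanine array the differences were 1.07 from aspartate and 1.35 from glutamate, and neither was called. The call against aspartate was also lost without either aspartate array, with the replicate number as a block (adjusted p = 0.067) and without the dye term (adjusted p = 0.15), and that against glutamate without the first glutamate array (adjusted p = 0.060). With the replicate block the call against glutamate held (adjusted p = 0.014). For alanine, serine, aspartate and glutamate this block equals the dye term, so the differences between them did not move. Only the spread shared over all arrays did.

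In the retrograde response, Rtg1 and Rtg3 switch on genes that supply 2-oxoglutarate when glutamate is short. Against glutamate, 2 of 10 tested genes of this list were called higher and none lower, against 0.146% and 0.0293% of all genes tested. Of the 10, 7 lay above 0 and 3 below, with a median of 0.66 against -0.02 over all genes tested. CIT2, for the peroxisomal citrate synthase, stood at -0.06 and -0.23 on alanine and at -2.52 and -1.77 on glutamate (2.0 ± 0.29, 95% interval 1.40 to 2.60, adjusted p = 0.0018). DLD3 stood at 0.46 and 0.64 on alanine and at -1.24 and -1.04 on glutamate (1.69 ± 0.17, 95% interval 1.34 to 2.03, adjusted p = 4.4e-06). Leaving out an alanine array ended neither call. That of DLD3 also held without either glutamate array. Leaving out the first glutamate array ended that of CIT2 (1.57, adjusted p = 0.053). On aspartate CIT2 stood at -0.25 and -0.19 and DLD3 at 0.72 and 0.67, and the differences from alanine were 0.08 (95% interval -0.53 to 0.68) and -0.15 (95% interval -0.49 to 0.20). Other genes of the response were not called against glutamate, with IDH1 at 0.75 (95% interval 0.40 to 1.10) and IDH2 at 0.99 (95% interval 0.55 to 1.43). Those below 0 were RTG2 at -0.03 and the oxodicarboxylate carrier genes ODC1 at -0.43 (95% interval -0.76 to -0.10) and ODC2 at -0.92 (95% interval -1.42 to -0.42). ILV3, for an enzyme of branched-chain amino acid synthesis, was called at 1.06 ± 0.21. It falls outside the rule for named genes and was named after its value was seen. SDL1 was called lower than on glutamate (-1.01 ± 0.20), and lost its call without either alanine array or the second glutamate array. With the replicate block SDL1 (adjusted p = 0.069) and DAL1 (adjusted p = 0.094) were not called against glutamate.

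Against aspartate, 3 more genes were called. POR1, for the mitochondrial porin, stood at 0.20 and 0.84 on alanine and at -0.25 and -0.48 on aspartate (0.88 ± 0.18). ALD6, for the cytosolic aldehyde dehydrogenase that makes acetate, stood at -0.07 and -0.95 on alanine and at 0.35 and 0.42 on aspartate (-0.89 ± 0.18). TEF2, for translation elongation factor 1 alpha, stood at 0.39 and -0.48 on alanine and at 1.13 and 0.97 on aspartate (-1.09 ± 0.21), and its near-identical copy TEF1 may share its signal. Each of these genes lost its call without the second alanine array or without either aspartate array. With the replicate block none of them was called, with adjusted p-values of 0.069 for POR1 and ALD6 and 0.088 for TEF2, and none was called without the dye term.

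For most nitrogen genes taken singly, the pairs could not be separated at this number of arrays. Against serine, the nitrogen catabolite repression list had 20 genes above 0 and 6 below, with a median of 0.56. Urea and allantoin genes had 9 above and 1 below, with a median of 0.88. The median over all genes tested was -0.02. Only DAL1 was called in these lists. The repression list had medians of -0.08 against aspartate and -0.21 against glutamate. GAP1 stood at -2.84 and -0.47 on alanine, at -4.13 and -2.40 on serine, at -0.08 and -0.71 on aspartate and at -0.34 and -0.08 on glutamate. Its differences were 1.61 from serine (95% interval 0.51 to 2.71), -1.26 from aspartate (-2.36 to -0.16) and -1.44 from glutamate (-2.55 to -0.34), none of them called. MEP2 differed from glutamate by -1.25 (95% interval -1.99 to -0.51) and from serine by 0.62 (-0.12 to 1.36), without a call. GDH2 differed from glutamate by 1.23 (95% interval 0.58 to 1.87, adjusted p = 0.11). GLT1 had narrower limits, with differences of -0.34 from serine (95% interval -0.82 to 0.15), 0.23 from aspartate (-0.25 to 0.72) and -0.14 from glutamate (-0.62 to 0.35). AGP1 differed from serine by 1.42 (95% interval 0.07 to 2.77) and from glutamate by 0.32 (-1.03 to 1.67).

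**Figure D5:**
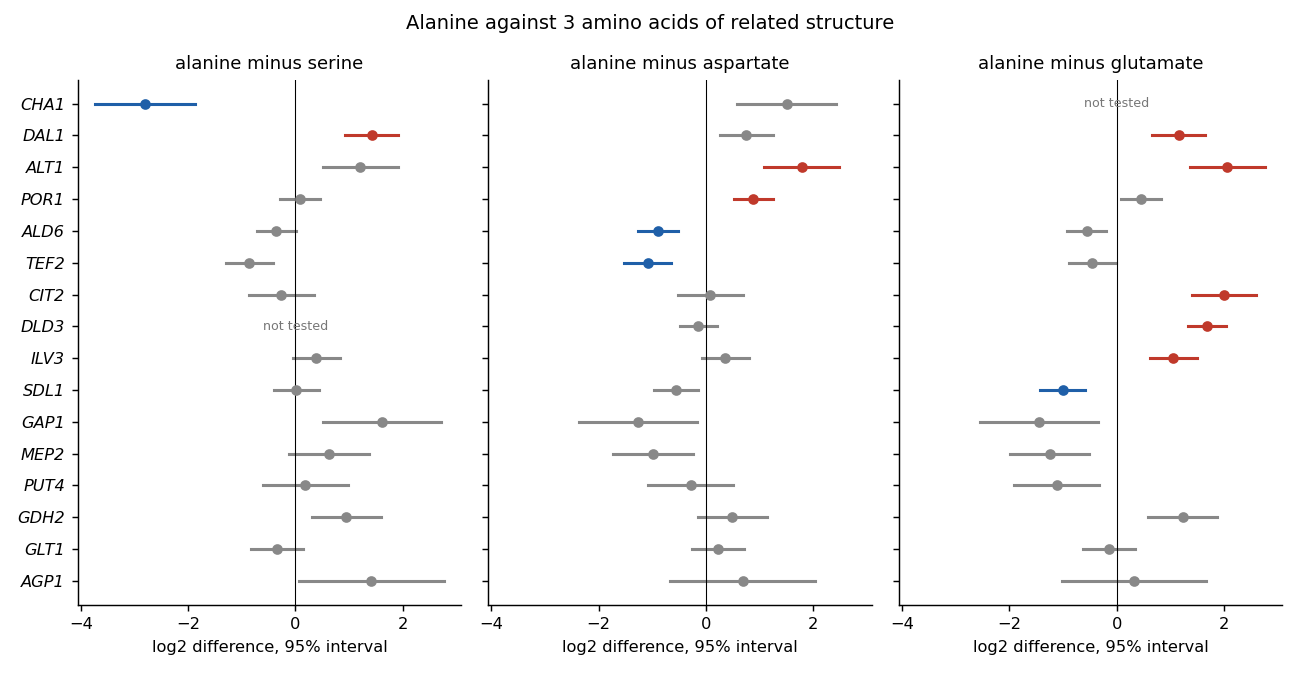
Log2 difference of alanine from serine, aspartate and glutamate (x axes) for 16 genes, with the 95% interval of each difference, not adjusted for the number of tests; red marks a gene called higher on alanine, blue one called lower and grey one not called. ALT1 lies above 0 in all panels and is called against aspartate and glutamate, while CIT2 and DLD3 are called against glutamate only.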

How the data were processed

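Values were log2 ratios of Cy5 over Cy3, 1 per spot, deposited by the authors already centred. Base 2 is assumed, and how they were normalized, scanned, background-corrected or filtered is not given in these sources. On array 1 15.3% of spots had no value, on array 2 34.0%. Array medians lay within 0.01 of 0. Values were turned to source over urea and averaged per gene, with genes named from the platform annotation (12800 probes per table, of which 10890 and 11188 named 1 gene) and current RefSeq symbols. Duplicate spots of a gene correlated at 0.982 on array 1 and 0.911 on array 2.

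For each gene the 40 arrays together were fitted with 1 coefficient for each source and 1 for the dye, in limma 3.58.1 in R 4.3.3 (statmod 1.5.0 for array weights; Python 3.11.15, numpy 2.4.6, pandas 2.3.3, matplotlib 3.10.9), and the spread was moderated across genes. Genes needed values on at least 30 arrays and on both alanine arrays, and for the contrast with the mean of the others on both arrays of at least 15 of 19 sources. Tests were two-sided. The number of arrays limits the precision. For alanine, serine, aspartate and glutamate, the replicate number goes with the table and the dye, so these cannot be told apart against urea. The gap between the alanine arrays correlated over 0.1 with that of each of 17 other sources with both orientations (0.263 to 0.484). Dye, table and replicate number go together in those sources too, so this correlation cannot show that replicate numbers pair arrays. On simulated data with independent errors, changes of 0.5 and 1 were recovered in 69.0% and 98.0% of genes against urea, and in 66.7% and 97.4% against the other sources, with 4 and 5 unchanged genes called. For serine the rates were 31.8% and 90.5%, for aspartate 31.1% and 91.4% and for glutamate 33.3% and 88.9%, with 2, 6 and 2 unchanged genes called.

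Named genes were the 15 highest and 15 lowest against urea with both arrays in the direction, up to 12 each way against the other sources, up to 4 each way per pair, any member of the uptake, transamination, glutamate, pyruvate, urea and GATA lists, and up to 4 members of largest absolute value of other lists. Comparisons, members and the 38 lists were chosen with earlier results of these data known. Alternatives were no dye term, a replicate block, array weights, array medians subtracted, genes measured on all 40 arrays or on at least 20, spots combined by their median, a fit of the compared arrays alone, the mean without tryptophan and tyrosine, and leaving out each array in turn.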

Additional observations from a re-analysis of the deposited data

How the results depend on the processing

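Against urea 869 genes were called, and 357 to 382 with 1 alanine array left out, 511 without the dye term, 544 with array weights, 329 with values on all 40 arrays, and 176 from the arrays of the comparison alone. Against the mean of the other sources 52 were called, and 10 to 102 with 1 alanine array left out, 9 without the dye term, 21 with array weights, 30 with values on all 40 arrays, and 27 with tryptophan and tyrosine left out of the mean. Against serine 2 were called, 1 with values on all 40 arrays, without the dye term or from its arrays alone, and 1 to 62 with 1 array left out. Against aspartate 4 were called, 7 with array weights, 2 with values on all 40 arrays, 1 with at least 20 arrays, 0 without the dye term, from its arrays alone or with the replicate block, and 0 to 63 with 1 array left out. Against glutamate 6 were called, 3 with at least 20 arrays, without the dye term or with the replicate block, 0 from its arrays alone, and 4 to 87 with 1 array left out. With the replicate block the calls against urea numbered 778, against the others 40 and against serine 2. That block differs from the dye term only on the tryptophan and tyrosine arrays. Among the genes followed by name, 77 of them against urea, none reversed its direction when called. Of all 869 genes called against urea, 4 changed sign when array 2 was left out. Fewer genes or arrays enter some of these fits, and other causes were not tested.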

Other observations

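A set of genes tied to heme, oxygen and membrane lipids stood at one end of the sources measured on alanine. It was picked after the values were seen, so it carries no test as a group. OLE1, for the fatty acid desaturase, stood at -0.79 and -0.81, with the other sources between -0.75 and 0.64. HMX1, for heme oxygenase, stood at -0.55 and -1.07, with the others between -0.70 and 0.56. FAA1, for an acyl-CoA synthetase, stood at -0.36 and -1.03, and ROX1, for the repressor of hypoxic genes, at -0.03 and -0.84. Alanine had the lowest fitted value for all 4, each was called against the mean of the other sources, and none was called without array 2 (adjusted p from 0.42 for OLE1 to 1 for the others). ELO1, for a fatty acid elongase (-0.15 and -0.56), showed the same order, and CYB5, for cytochrome b5 (-0.56 and -1.21), was lowest as well but not called (adjusted p = 0.076). The fatty acid synthase genes FAS1 (0.52 and 0.03) and FAS2 (-0.02 and 0.09) were not called.

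On the other side, HEM13, whose gene Rox1 represses, was highest on alanine. ANB1, another gene repressed by Rox1, stood at 1.56 and 1.78, where the 17 other arrays with a value ran from -1.16 to 1.78 (median -0.28), the highest being a valine array. It had too few arrays to be tested. Whether the values of HEM13 and ANB1 depend on that of ROX1 was not tested. The cell wall gene DAN1 stood at 2.23 and 1.35, with only 1 other array measured (0.10). TIR1 (0.98 and 0.72) and TIR3 (1.42 and 0.65), further cell wall genes, had values on 25 arrays, and 4 and 1 of the other arrays lay above both alanine arrays. Other genes known for low oxygen did not share this order, among them COX5B (-0.51 and -0.30) and AAC3 (0.52 and 0.31), neither called.

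Mating genes beside SAG1 and FUS1 were also read after their values were seen. AGA1, for the anchor of a-agglutinin, stood at 0.91 and 2.05 and was called (1.48, adjusted p = 1.0e-04). KAR4, for a transcription factor of mating, stood at 0.75 and 0.77 (0.76, adjusted p = 0.0063). STE2, for the alpha-factor receptor, stood at -0.12 and 1.10, above 0 on array 2 only. For SAG1 and KAR4 the highest single array was on methionine (3.14 and 0.99). PRM1, PRM3, PRM5 and STE3 were also called higher. STE7, for a kinase of the mating pathway, was called lower at -0.32 and -0.28. FUS3 (0.70 and 0.42), FAR1, GPA1, FIG2, MF(ALPHA)1 and MF(ALPHA)2 were not called. Of SAG1, FUS1, AGA1, KAR4 and STE2, none was called against the mean of the other sources.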
